A study of Mus musculus with 24 samples.

Results

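Adcy6, Itpr2, Pde1b and Calm3, 4 genes at the crossing of calcium and cyclic AMP signaling, were followed in 3T3-L1 adipocytes exposed to a PPARδ or a PPARγ agonist. All probes annotated to these symbols were taken, which gave 5 of the 13964 probes in the data and 4 of 8389 genes with a single symbol. Pde1b had 2 probes (ILMN_1224034 and ILMN_2730293) and the others had 1 each: ILMN_1249888 for Adcy6, ILMN_3155180 for Itpr2 and ILMN_1215681 for Calm3. All 5 probes had values on every array of both comparisons, although a probe was kept where 1 sample detected it, so detection of each in the controls is not known. With the PPARγ agonist Adcy6, Itpr2 and Pde1b rose, with log2 differences between 0.20 and 0.37. With the PPARδ agonist only Pde1b among these genes passed the test, on both of its probes, with 0.55 and 0.59. Calm3 passed the test with neither agonist. The differences between the agonists had opposite signs: Pde1b rose more with the PPARδ agonist and Adcy6 more with the PPARγ agonist. Adcy6 had been named by the study from the same PPARγ agonist arrays, so its difference is not independent evidence.

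Adenylyl cyclases make cyclic AMP, which activates protein kinase A, and cyclic nucleotide phosphodiesterases break it down. Inositol trisphosphate, released by phospholipase C, opens receptor channels that let calcium out of the endoplasmic reticulum, and calmodulin is the protein that senses the released calcium. The routes meet at several points, since some adenylyl cyclases are inhibited by calcium and one family of phosphodiesterases is switched on by calcium and calmodulin. In adipocytes, catecholamines raise cyclic AMP to start lipolysis, and insulin lowers it through phosphodiesterase activity. PPARγ and PPARδ are nuclear receptors that bind DNA together with the retinoid X receptor.

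3T3-L1 is a clonal line of mouse embryonic fibroblasts that turns into fat cells in culture. All groups shared an induction of 72 h with dexamethasone, insulin and isobutylmethylxanthine, itself an inhibitor of phosphodiesterases, and a treatment medium with insulin. From day 11 after induction the cultures received DMSO as vehicle, GW610742 to activate PPARδ or GW347845 to activate PPARγ for 48 h, with 6 arrays in each group. The labels give 1 μM for GW610742 and 100 μM for GW347845, the methods for these cells give 100 nM and 1 μM for the former and 10 nM and 100 nM for the latter, and the sources do not settle which of these the arrays received. The methods call the hybridizations independent and do not say whether each had its own culture, so the p-values cover the scatter among arrays only, which may be technical, and the small number of arrays limits the precision. The RNA came from whole cultures, in which fewer cells of a type and less RNA per cell cannot be told apart.

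Each probe's brightness was deposited on a log2 scale after variance stabilization. A difference of 1 is close to a doubling for bright probes and need not be for dim ones. Levels of different probes cannot be set against each other. Each agonist's arrays had been normalized together with the DMSO arrays, so the same 6 control hybridizations were present in 2 versions, with a correlation of at least 0.9987 between the versions of a hybridization after subtraction of the group mean. Each agonist was set against its own version of the controls. Of the GW347845 arrays, replicate 6 correlated more closely with the controls (0.990) than with its own group (0.987).

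The sequence before the start site is given for Pde1b, the gene that passed the test with both agonists, and for Calm3, which held the single match to a searched motif. Upstream windows of 250 bases from RefSeq (GRCm38.p6) matched Itpr2, Pde1b and Calm3, 3 of the 4 genes, with 3 start sites listed for Pde1b and 1 for each of the others. They were searched on both strands for AGGTCANAGGTCA, a direct repeat that PPAR and retinoid X receptor pairs bind, for its repeated unit AGGTCA, for TGACGTCA, the palindrome bound by the cyclic AMP response element binding protein, and for its first letters TGACG, which also lies within the palindrome. The motifs were present in 0.0335%, 14.0%, 1.55% and 17.8% of 32851 windows of the same length. TGACG, in capitals, was found once, in the window of Calm3 on the gene's strand, 59 to 55 bases before the start. The window of Pde1b is from the plus strand at chr15:103502784-103503033, before the start site listed first, and that of Calm3 from the minus strand at chr7:16924033-16924282.
Pde1b: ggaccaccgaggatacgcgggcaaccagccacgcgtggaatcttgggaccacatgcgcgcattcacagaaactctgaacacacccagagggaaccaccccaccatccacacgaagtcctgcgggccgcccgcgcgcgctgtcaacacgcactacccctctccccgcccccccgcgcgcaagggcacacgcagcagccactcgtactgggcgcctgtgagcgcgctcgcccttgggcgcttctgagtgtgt
Calm3: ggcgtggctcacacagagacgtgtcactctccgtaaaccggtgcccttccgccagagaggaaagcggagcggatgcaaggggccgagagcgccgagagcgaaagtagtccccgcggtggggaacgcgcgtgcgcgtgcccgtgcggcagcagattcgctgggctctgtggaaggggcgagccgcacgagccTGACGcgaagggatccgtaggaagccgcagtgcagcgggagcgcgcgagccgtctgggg
The first Pde1b window held 67.2% G and C and 26 CpG dinucleotides and that of Calm3 69.2% and 33, against medians of 52.4% and 6 over all windows. The window of Itpr2 held 74.4% G and C with 22 CpG, and those before the other start sites of Pde1b 44.8% and 50.0% with 0 and 1. A match, or its absence, describes these letters only.

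**Figure D1:**
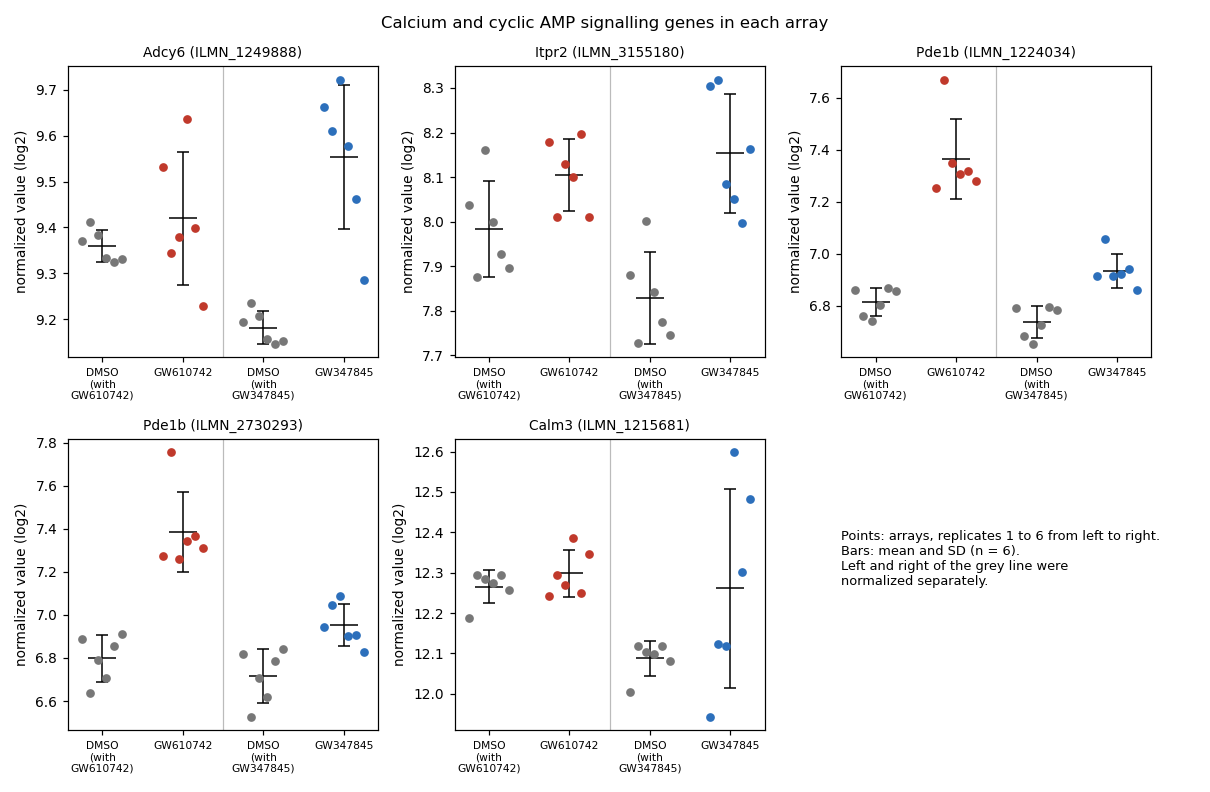
Log2 probe value (vertical axis) of each array in the DMSO, GW610742 and GW347845 groups, with 1 panel for each of the 5 probes; points are arrays and bars the group mean and SD. The 6 GW610742 arrays lie above all controls on both Pde1b probes, and the 6 GW347845 arrays lie above all controls for Adcy6.

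Adcy6 encodes adenylyl cyclase 6, a membrane enzyme that makes cyclic AMP and is inhibited by calcium. Its control arrays, as normalized with GW347845, had a lowest value of 9.15, a median of 9.18 and a highest of 9.23, and the GW347845 arrays had 9.29, 9.59 and 9.72. All 6 treated arrays lay above all controls, which held for 2.88% of all probes, and replicate 6 was the one nearest to the controls. The mean was 9.18 ± 0.035 (SD, n = 6) in the controls and 9.55 ± 0.16 (SD, n = 6) with GW347845, a log2 difference of 0.37 (SE 0.063, limma adjusted p = 0.00047) or 1.29-fold. With GW610742 the lowest, median and highest values were 9.23, 9.39 and 9.64 against 9.33, 9.35 and 9.41 in the controls, so that treated arrays lay on both sides of the controls. The difference of 0.06 (95% interval -0.06 to 0.18) did not pass the test (limma adjusted p = 0.48). The treated arrays of both agonists spread more widely than the controls, with SDs of 0.14 and 0.16 against 0.035.

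Pde1b encodes phosphodiesterase 1B, one of the phosphodiesterases switched on by calcium and calmodulin, which breaks down both cyclic AMP and cyclic GMP. On probe ILMN_1224034 the controls had a lowest value of 6.74, a median of 6.83 and a highest of 6.87, and the GW610742 arrays had 7.25, 7.31 and 7.67. On probe ILMN_2730293 the controls had 6.64, 6.82 and 6.91, and the GW610742 arrays 7.26, 7.33 and 7.75. On both probes all 6 treated arrays lay above all controls, which held for 3.40% of all probes, and replicate 2 stood above the other treated arrays. The log2 differences were 0.55 (SE 0.060, limma adjusted p = 3.3e-05) and 0.59 (SE 0.073, limma adjusted p = 0.00011). Read as plain log2 values, these are 1.46-fold and 1.50-fold. Ordered by p, these probes were the 12th and the 27th of 13718. Without replicate 2 of GW610742 the differences were 0.49 and 0.51.

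With GW347845 the same probes of Pde1b moved in the same direction by less. On probe ILMN_1224034 the lowest, median and highest values were 6.65, 6.76 and 6.80 in the controls and 6.86, 6.92 and 7.06 in the treated arrays. All treated arrays lay above all controls, which held for 2.88% of all probes. On probe ILMN_2730293 the same values were 6.53, 6.75 and 6.84 in the controls and 6.83, 6.93 and 7.09 in the treated arrays, of which replicate 6 lay below the highest control. Both probes nevertheless passed the test. They are dim: 8.08% and 7.76% of probes were dimmer in this comparison, and 17.5% and 17.6% in that of GW610742. The log2 differences were 0.20 (SE 0.044, limma adjusted p = 0.0048) and 0.24 (SE 0.062, limma adjusted p = 0.012). Read as plain log2 values, these are 1.14-fold and 1.18-fold, which for such dim probes are approximate.

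Itpr2 encodes the inositol trisphosphate receptor type 2, a calcium release channel of the endoplasmic reticulum. Its controls had a lowest value of 7.73, a median of 7.81 and a highest of 8.002, and the GW347845 arrays had 7.997, 8.12 and 8.32. The groups overlapped by 1 array, replicate 5 of GW347845, which lay just below the highest control, and the other 5 lay above all controls. The mean was 7.83 ± 0.10 (SD, n = 6) in the controls and 8.15 ± 0.13 (SD, n = 6) with GW347845, a log2 difference of 0.32 (SE 0.065, limma adjusted p = 0.0019) or 1.25-fold. With GW610742 the lowest, median and highest values were 8.01, 8.12 and 8.20 against 7.87, 7.96 and 8.16 in the controls, which overlapped. The difference was 0.12 (95% interval 0.01 to 0.23) with a limma adjusted p of 0.117, and it passed the threshold at 0.16 (limma adjusted p = 0.038) without DMSO replicate 3, the highest control.

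Calm3 encodes calmodulin, the same protein as Calm2. Its controls had a lowest value of 12.005, a median of 12.10 and a highest of 12.12, and the GW347845 arrays had 11.94, 12.21 and 12.60. Of the treated arrays, replicate 1 lay below all controls, replicates 4, 5 and 6 lay well above them and replicates 2 and 3 were close to the highest control. The log2 difference was 0.17 (SE 0.090, 95% interval -0.02 to 0.36, limma adjusted p = 0.18). Without GW347845 replicate 1 it was 0.24 (limma adjusted p = 0.047). With GW610742 the lowest, median and highest values were 12.24, 12.28 and 12.39 against 12.19, 12.28 and 12.29 in the controls, and the difference was 0.03 (95% interval -0.05 to 0.12, limma adjusted p = 0.60).

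**Figure D2:**
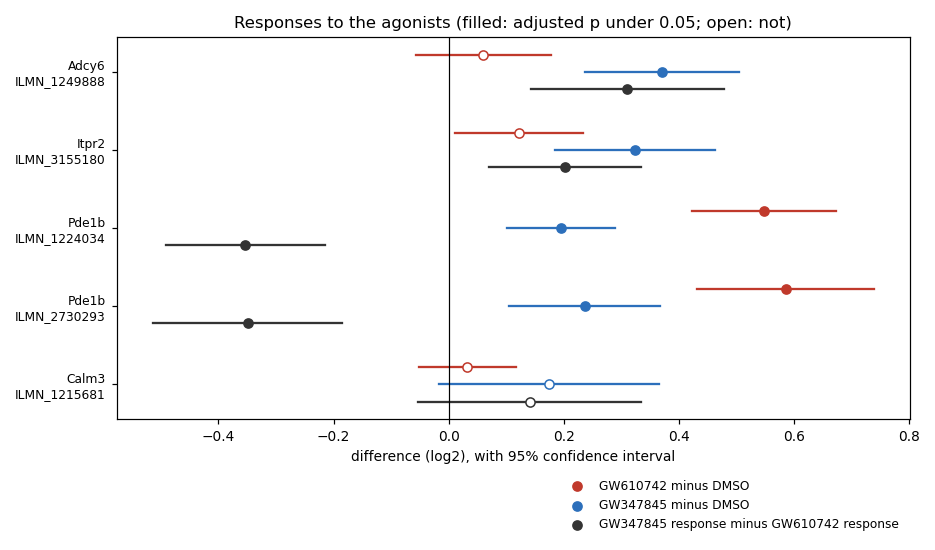
Log2 difference from DMSO for each of the 5 probes with GW610742 and with GW347845, and the difference between the agonists' responses (horizontal axis); bars are 95% intervals. The intervals of Pde1b lie above 0 with both agonists and below 0 for the difference between them, while those of Calm3 include 0 in all 3 comparisons.

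Counted by gene on the brightest probe, 1 of the 4 rose with GW610742, where 8.26% of all genes rose, and 3 of the 4 rose with GW347845, where 10.2% rose. By probe the counts were 2 of 5 and 4 of 5, where 8.19% and 10.4% of all probes rose. None of the 5 probes fell, where 8.93% and 13.5% of all probes did. Adcy6, Itpr2 and Pde1b were named by the study in pathway results drawn from these same GW347845 arrays, so their direction there is not independent evidence.

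The agonists were compared on each treated array's value minus the mean of its own controls. Pde1b differed by -0.35 on ILMN_1224034 (SE 0.065, limma adjusted p = 0.00075) and by -0.35 on ILMN_2730293 (SE 0.077, limma adjusted p = 0.0034), that is, its response to GW347845 was the lower one. On the first probe the responses ran from 0.12 to 0.32 with GW347845 and from 0.44 to 0.85 with GW610742. On the second they ran from 0.11 to 0.37 and from 0.46 to 0.96. The agonists did not overlap on either probe, and all GW347845 responses lay below all GW610742 responses for 10.5% of probes. Over all probes, 14.5% had a lower and 14.9% a higher response to GW347845 by the test.

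Adcy6 and Itpr2 differed in the other direction. The study had named both as increased from these same GW347845 arrays. Their differences between the agonists are therefore not independent evidence either, whatever their p-values. The responses of Adcy6 ran from 0.10 to 0.54 with GW347845 and from -0.13 to 0.28 with GW610742, overlapping through 1 array of the former, replicate 6. The difference was 0.31 (SE 0.078, limma adjusted p = 0.0081). Itpr2 responded by 0.17 to 0.49 with GW347845 and by 0.03 to 0.21 with GW610742, and its difference was 0.20 (SE 0.062, limma adjusted p = 0.023). The call for Itpr2 rested on single arrays: the difference was 0.17 to 0.18 with limma adjusted p of 0.051 to 0.054 without replicate 2 or replicate 6 of GW610742 or without replicate 1 or replicate 2 of GW347845. For Calm3 the difference was 0.14 (95% interval -0.05 to 0.33, limma adjusted p = 0.25). Whether unequal doses had a part in these differences was not tested.

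**Figure D3:**
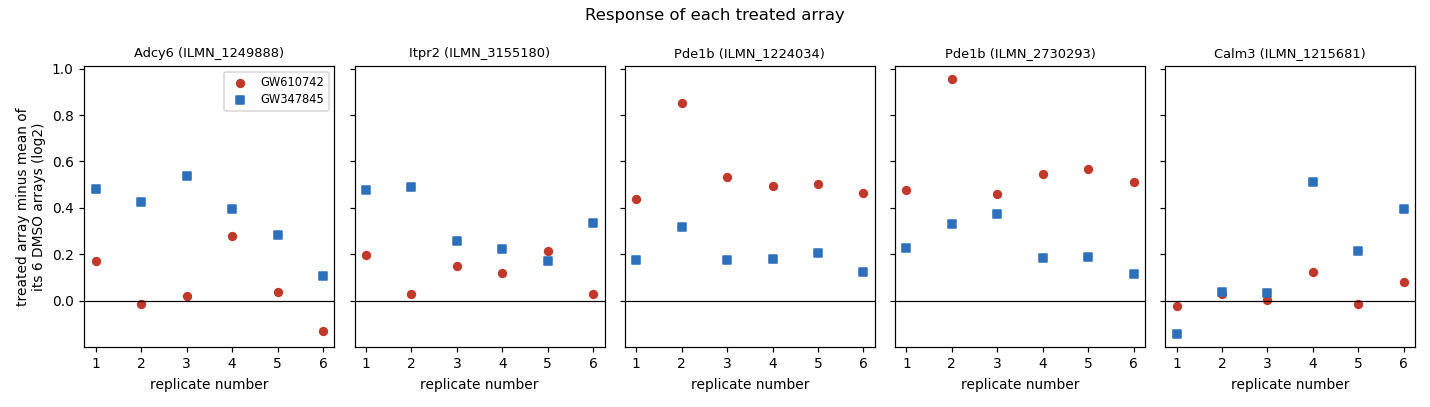
Response of each treated array, its log2 value minus the mean of its own DMSO arrays (vertical axis), against replicate number (horizontal axis) for GW610742 and GW347845, with 1 panel for each probe. The GW347845 points lie below all GW610742 points on both Pde1b panels, and for Calm3 they lie near 0 or below in replicates 1 to 3 and between 0.21 and 0.51 in replicates 4 to 6.

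The GW347845 arrays numbered 1 to 3 and those numbered 4 to 6 stood apart in several of these values, although no label marks a batch. Because the values themselves stand apart along this split, p-values within a set describe it and are no independent test of a response. Calm3 averaged 12.06 in replicates 1 to 3 of GW347845 and 12.46 in replicates 4 to 6, against 12.08 and 12.10 in the controls. Within replicates 1 to 3 its difference from DMSO was -0.014 (limma adjusted p = 0.92) and within replicates 4 to 6 it was 0.36 (limma adjusted p = 0.0067). The differences of the other genes with GW347845 were larger in replicates 1 to 3. Adcy6 rose by 0.45 in replicates 1 to 3 and by 0.29 in replicates 4 to 6 (limma adjusted p = 8.2e-05 and 0.021). Itpr2 rose by 0.37 and by 0.28 (limma adjusted p = 0.0042 and 0.012). Pde1b had 0.25 and 0.34 on its probes in replicates 1 to 3 (limma adjusted p = 0.015 and 0.0045), and 0.14 and 0.13 in replicates 4 to 6, which did not pass (limma adjusted p = 0.14 and 0.23). With GW610742 both Pde1b probes passed in each set of arrays, with 0.64 and 0.66 in replicates 1 to 3 and 0.46 and 0.52 in replicates 4 to 6. The difference between agonists held in each set for Pde1b (-0.38 and -0.31, then -0.32 and -0.38) and in replicates 1 to 3 alone for Adcy6 (0.42, then 0.20) and Itpr2 (0.28, then 0.12).

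Markers of the adipocyte and of the fibroblast were followed in the same sets of arrays. The mean of 8 of 13 listed adipocyte markers, those with values in both comparisons, was 9.83 in DMSO replicates 1 to 3 and 9.29 in replicates 4 to 6, and 10.51 and 9.34 in those of GW347845. By array it ran from 9.23 to 10.10 in the controls and from 9.16 to 10.67 with GW347845. Another 2 markers had values in the GW347845 comparison alone, so they were kept through its treated arrays. Of the 10 adipocyte markers measured there 1 was called, or 10.0% against 23.0% of all genes. It was the fatty acid binding protein Fabp4 (0.53), one of those 2, and its difference is no test. The median difference over the 10, those 2 included, was 0.31, against 0.03 over all genes. Of 13 measured fibroblast and preadipocyte markers of 14 listed, 3 passed with GW347845, or 23.1% against 23.0% of all genes: the collagen gene Col3a1, which fell by 1.16 on its brightest probe and had -0.25 on another (limma adjusted p = 0.29), the collagen gene Col1a2, which fell by 0.71, and the transcription factor Gata3, which fell by 0.24 on the log2 scale. The other 10 did not pass, and the median difference over all 13 was 0.007, against 0.03 over all genes. The mean of the 13 by array ran from 11.0 to 11.2 in the controls and from 10.8 to 11.2 with GW347845. In the GW610742 comparison 8 adipocyte markers were measured, with means by array from 9.37 to 10.2 in the controls and from 9.42 to 10.2 in the treated arrays. Of these 1 passed, the lipid droplet gene Cidec (0.81, limma adjusted p = 0.0496), or 12.5% against 17.0% of all genes. With GW347845 Cidec had 1.32, which did not pass (limma adjusted p = 0.073). The median difference of the 8 markers in the GW610742 comparison was 0.08, against -0.01 over all genes. The 13 fibroblast markers there ran from 11.2 to 11.3 in both groups. Of these 15.4% were called, against 17.0% of all genes: Col1a2 was higher by 0.23 and Gata2 lower by 0.30 on the log2 scale. An array has no true 0, so absence of a marker could not be read. The part of cell composition in the values of Adcy6, Itpr2, Pde1b and Calm3 was not tested.

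Around these genes, 11 lists of calcium and cyclic AMP signaling genes were described by the brightest probe of each gene. Apart from the 4 genes, 110 of 219 listed genes were measured with GW610742, of which 4 rose and 14 fell, or 16.4% called against 17.0% of all genes (8.26% rose and 8.69% fell). With GW347845, 10 rose and 9 fell of 110, or 17.3% against 23.0% of all genes (10.2% rose and 12.8% fell). The response to GW347845 was the higher one for 22 and the lower one for 8 of 108 genes, or 27.8% called against 27.8% of all genes (14.0% higher and 13.8% lower). Over both directions the shares called were at or below the background in all 3 comparisons. By direction, 3.64% rose and 12.7% fell with GW610742, 9.09% rose and 8.18% fell with GW347845, and 20.4% had the higher and 7.41% the lower response to GW347845. The median difference was -0.04 with GW610742 and 0.05 with GW347845, against -0.01 and 0.03 over all genes.

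**Figure D4:**
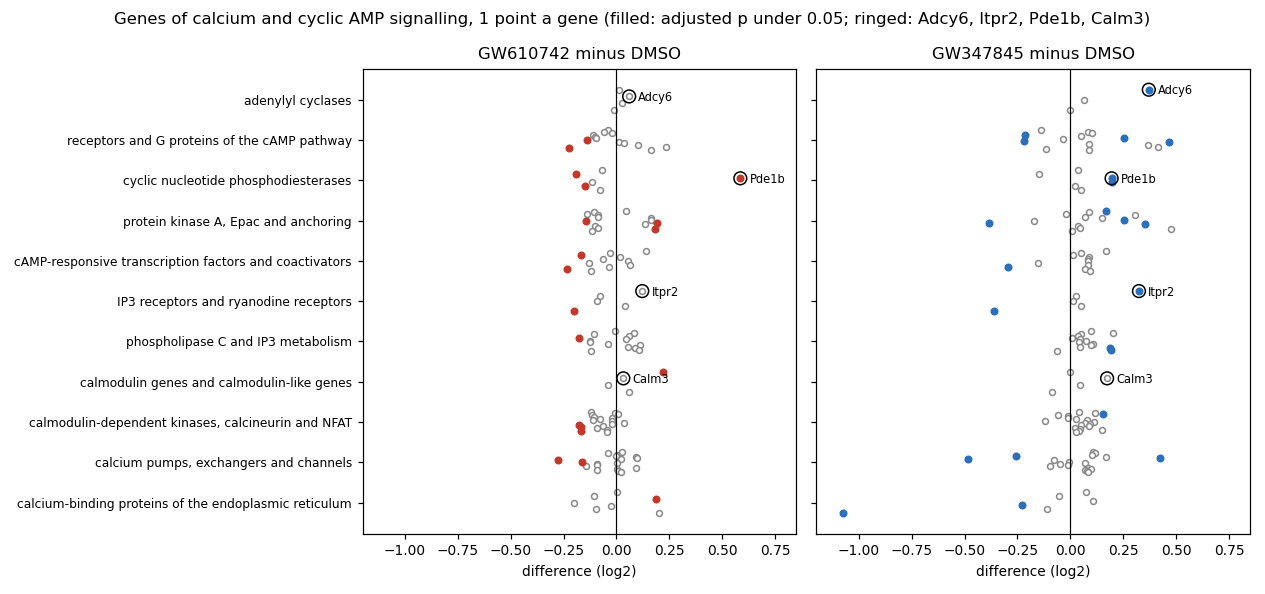
Log2 difference from DMSO (horizontal axis) of each measured gene in 11 lists of calcium and cyclic AMP signaling genes (rows), for GW610742 and GW347845; filled points passed the test and the 4 ringed genes are Adcy6, Itpr2, Pde1b and Calm3. Pde1b lies at the right end of all listed genes with GW610742, and Selenok at the left end with GW347845 at -1.08.

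On the cyclic AMP side, none of 4 measured adenylyl cyclases passed with GW610742. With GW347845 Adcy6 passed, 1 of 3 measured, or 33.3% against 23.0% of all genes. Of 6 measured phosphodiesterases, 50.0% were called with GW610742, against 17.0% of all genes. Pde1b rose, while Pde1a, a relative that calcium and calmodulin also switch on, fell by 0.19 (limma adjusted p = 0.018). The cyclic AMP phosphodiesterase Pde4d fell by 0.15 (limma adjusted p = 0.029). Another Pde4d probe had 0.17, but it had values in the GW610742 comparison alone and so was kept through the treated arrays, which makes its difference no test. The other Pde1a probes had -0.11 each and did not pass. With GW347845, Pde4b, also specific for cyclic AMP, rose by 0.20 (limma adjusted p = 0.033) beside Pde1b. These were 2 of 6 phosphodiesterases, or 33.3% against 23.0% of all genes. The brightest probe of Pde1a missed the threshold there at -0.15 (limma adjusted p = 0.052), and its other probes fell by 0.45 and 0.42 (limma adjusted p = 3.4e-05 and 8.3e-05). Prkaca, the catalytic subunit alpha of protein kinase A, rose with GW347845 from a mean of 10.44 to 10.79 on its brightest probe (0.35, limma adjusted p = 0.00012) but not on its other probe (0.10, limma adjusted p = 0.30). With GW610742 the brightest probe had 0.13 (limma adjusted p = 0.055) and the other 0.00, and neither passed.

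Other genes that act on protein kinase A or upstream of it moved in both directions. Pkig, which encodes an inhibitor of protein kinase A, rose by 0.19 with GW610742 (limma adjusted p = 0.029) and fell by 0.38 with GW347845 (limma adjusted p = 0.0011), a difference of -0.58 between the agonists (limma adjusted p = 2.3e-05). A second Pkig probe passed in neither comparison (-0.08 and 0.01), and Pkia, another inhibitor of protein kinase A, fell by 0.15 with GW610742 (limma adjusted p = 0.046). Prkar2b, a regulatory subunit, rose by 0.18 with GW610742 and had 0.47 with GW347845, which did not pass (limma adjusted p = 0.055). Its difference between the agonists was 0.29 (limma adjusted p = 0.21). The anchoring proteins Akap9 and Akap1 rose with GW347845 by 0.25 and 0.17. Of their other probes, those of Akap9 had 0.33 and -0.07, the latter not passing, and that of Akap1 rose by 0.24. Among G protein genes, Rgs2, a regulator that shortens G protein signals, fell by 0.23 and 0.20 on its probes with GW610742 and had -0.12 and -0.19 with GW347845, where only the dimmer probe passed (limma adjusted p = 0.040), while the β subunit Gnb1 rose by 0.25 and Gnas, the stimulatory α subunit, fell by 0.21 on 1 of its probes with GW347845. The transcripts of Per1 and Fos can be induced by cyclic AMP. Per1 fell by 0.24 and 0.30 on its probes with GW610742, and Fos fell by 0.30 with GW347845. Fos had -0.04 with GW610742 and the Per1 probes 0.07 and -0.04 with GW347845, none of which passed. Of 11 measured transcription factors and coactivators responsive to cyclic AMP, 18.2% were called with GW610742, against 17.0% of all genes. With GW347845 9.09% were called, against 23.0% of all genes. The Gnas probes that did not pass had -0.12 and 0.20.

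On the calcium side, Itpr2 passed with GW347845. The study lists Itpr1, a receptor of the same family, beside it as increased with the PPARγ agonist. Itpr1 was not analysed here. Itpripl2, another of the listed genes, fell on its brightest probe by 0.20 with GW610742 and by 0.36 with GW347845 (limma adjusted p = 0.015 and 0.011). Its other probe had -0.16 and -0.09 (limma adjusted p = 0.025 and 0.45). The receptor Itpr3 had -0.08 with GW610742 (limma adjusted p = 0.21) and 0.03 with GW347845 (limma adjusted p = 0.73). Upstream, the phospholipases Plcd1 and Plcd3 each rose by 0.19 with GW347845, and Gnaq, the G protein subunit that activates phospholipase C, fell by 0.18 with GW610742 on its brightest probe and by 0.29 with GW347845 on another (limma adjusted p = 0.016 and 0.039), each probe missing the threshold with the other agonist. Calm2, which also encodes calmodulin, rose with GW610742 on its brightest probe, from a mean of 10.92 to 11.14 (0.22, limma adjusted p = 0.0074), and its other probes had 0.18 and 0.00, which did not pass. With GW347845 the 3 Calm2 probes had 0.00, 0.25 and -0.69 (limma adjusted p = 0.98, 0.017 and 3.8e-07), so no direction could be given for the gene.

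Downstream of calmodulin, 3 of 18 measured genes of kinase, calcineurin and NFAT signaling passed with GW610742, or 16.7% against 17.0% of all genes, and all 3 fell: Rcan1, a calcineurin inhibitor, Ppp3cb, a catalytic subunit, and Nfatc4, a transcription factor that calcineurin activates, by 0.17, 0.17 and 0.18. Of 19 measured genes of this list 1 passed with GW347845, or 5.26% against 23.0% of all genes, the kinase Camk2d at 0.15 on its brightest probe and -0.05 on another (limma adjusted p = 0.50). Orai1 and Orai3, channels that admit calcium when stores are empty, fell by 0.28 and 0.16 with GW610742 (limma adjusted p = 0.0014 and 0.031). With GW347845, Selenok, an endoplasmic reticulum selenoprotein, fell by 1.08 (limma adjusted p = 1.6e-06), from a mean of 9.44 to 8.37. Micu2, a regulator of the mitochondrial calcium uniporter, fell by 0.48 on its brightest probe (limma adjusted p = 5.2e-05) and had 0.04 on the other. Letm1, a cation exchanger of the inner mitochondrial membrane, rose by 0.42 and the calcium channel Cacna1g fell by 0.26 and 0.21 on its probes with GW347845. Hspa5, a calcium-binding chaperone, had 0.19 with GW610742, but it had values in that comparison alone and was kept through the treated arrays, so this is no test, and it is 1 of the 4 listed genes counted as higher there.

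Among 8197 genes, those closest in pattern were ranked by the lower of the correlations over the 12 arrays of each comparison, arrays that share their controls. Cobll1 (0.911), Eif4ebp1 (0.903) and Gapdh (0.864) lay closest to Pde1b. Gm10125 (0.867), Abhd3 (0.851) and Mphosph9 (0.848) lay closest to Adcy6, and Aifm1 (0.859), Irs2 (0.805) and Itgb1 (0.801) to Itpr2. The values for Calm3 were lower, with Mthfd1 (0.786), Proser1 (0.754) and Pcgf6 (0.742). These correlations are a description of the arrays and were not tested.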

How the data were processed

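Illumina WG-6 bead arrays measured RNA of 3T3-L1 cells, 6 arrays per group. The authors kept probes detected in at least 1 sample, applied variance stabilization (lumi) and then quantile normalization, and deposited log2 values (13964 probes, 24 columns, with the controls normalized once with each agonist). Of the probes, 12157 carry 1 symbol, 4 several and 1803 none in GEO's platform annotation.

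Each agonist was compared with its controls by limma 3.58.1 in R 4.3.3, over 13718 (GW610742) and 13755 (GW347845) probes, with Benjamini-Hochberg adjustment and a threshold of 0.05. The agonists were compared on treated values minus the control mean over 13509 shared probes, which leaves out the spread of the controls. The script was tested on simulated data. Promoter windows were searched in Python 3.11.15, and figures drawn with matplotlib 3.10.9.

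The members and lists were chosen with earlier results of these data known. Named are all probes of the 4 genes, most of the up to 3 genes per list and direction with the smallest adjusted p against DMSO, Prkaca and Calm2, and the 3 genes most like each. Not described, although they met this rule, were Gng2, which rose, and Gng12 and Rcn3, which fell, with GW347845. The same holds for Gnb2 and Creb3l1, which fell with GW610742, and for genes chosen by the comparison between agonists alone. Further probes of a described gene are given for the comparison described. Itpr3 was chosen after its values were seen. Alternatives were a replicate block, other normalizations, filters, variance priors and tests, replicates 1 to 3 or 4 to 6 only, and leaving out each array.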

Additional observations from a re-analysis of the deposited data

Results flagged for a closer look

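In the controls, Calm3 replicate 1 stood below the other 5 arrays, at 12.19 in the values normalized with GW610742 and at 12.005 in those normalized with GW347845, which are versions of the same hybridization. Among the GW610742 arrays, Pde1b replicate 2 stood above the other 5, at 7.67 on probe ILMN_1224034 and at 7.75 on probe ILMN_2730293. The gap to the nearest array was 0.766 and 0.782 of the group's range for Pde1b and 0.658 and 0.664 for Calm3, over Dixon's limit. Chance flags about 1 in 20 groups, and 4 of 20 groups were flagged here, although the groups share arrays and hybridizations.

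The responses to the agonists differed by a test of the difference itself for 4 probes. GW347845 minus GW610742 was -0.35 for both Pde1b probes, 0.31 for Adcy6 and 0.20 for Itpr2 on the log2 scale. For Adcy6 and Itpr2 this is not independent evidence, since the study named them from the same GW347845 arrays.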

How the results depend on the processing

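Of 369 values recomputed under the alternatives for the 5 probes, leaving out arrays included, 351 kept their direction and side of the threshold, 11 no longer passed, 5 newly passed and 2 changed sign. The cause of the changes was not tested. Within replicates 1 to 3 the GW610742 comparison called 283 probes and within replicates 4 to 6 it called 1377, against 2349 with all arrays. Unadjusted p called 4417 probes by limma and 4143 by the methods' t-test there, and 5007 by limma with GW347845 against 3282. Itpr2 with GW610742 (0.12) passed with an unadjusted p. Within replicates 1 to 3 Calm3 with GW347845 had -0.014 and its difference between agonists was -0.028. Within replicates 4 to 6 these values were 0.36 and 0.31 and passed, on a split that no label gives and along which Calm3 itself stands apart. Pde1b with GW347845 (0.14 and 0.13) and the difference between agonists for Adcy6 (0.20) and Itpr2 (0.12) did not pass there. The Itpr2 difference also missed the threshold after cyclic loess (0.17) and with the trended, robust prior of eBayes (0.20), as did the Pde1b probe ILMN_2730293 with that prior (-0.35, limma adjusted p = 0.075). Leaving out 1 array gave 1672 to 2456 called probes with GW610742, 2654 to 4013 with GW347845 and 3262 to 4397 between agonists, and moved Itpr2 with GW610742 between 0.10 and 0.16, Calm3 with GW347845 between 0.11 and 0.24 and the Itpr2 difference between 0.17 and 0.23. Both Pde1b probes lie in the dimmest 25% of probes, so the filter on dim probes gave them no value, and the precision of dim probes is limited.

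Same-numbered arrays deviated together with correlations of -0.23 to 0.29 (GW610742 and DMSO), -0.015 to 0.55 (GW347845 and DMSO) and -0.14 to 0.33 (both agonists), and 1, 3 and 1 of 6 arrays correlated best with their own number, so the numbers were not taken as pairs. With the replicate number as a block 2263, 3751 and 3930 probes were called, against 2349, 3282 and 3973, and no call for the 4 genes changed.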
